A study of Mus musculus with 12 samples.

Results

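Insulin receptor substrates, insulin and IGF receptors and IGF-binding proteins were followed as Terc-/- (KO) and WT mouse ES cells differentiated. They are 10 genes (Irs1, Irs2, Irs4, Insr, Igf1r, Igfbp2, Igfbp3, Igfbp4, Igfbp5 and Igfbp7), read by every probe set that the array annotation gives to 1 of these symbols alone. That rule found 26 of the 45037 probe sets tested, and 10 of the 18193 genes with such a probe set. The genes were chosen by measured values, namely their array intensities in KO against WT cells and at day 15 against day 8, so those differences are a description here and carry no p-value.

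The 12 samples, all of C57BL/6 background, were hybridised to Affymetrix Mouse Genome 430 2.0 arrays, 2 per group. KO ES cells at day 0 were the lines F35 and A49 (passage 11, labelled G3/4 Terc-/-, that is late generations without the telomerase RNA), and WT ES cells at day 0 were the lines N12 and N33 (passage 12). The day 8 and day 15 groups of each genotype were cells of embryoid body (EB) differentiation, started as hanging drops without LIF and then moved to plates. For the later days the sources used here name no lines, so the spread between replicates there may be that of lines or of cultures. ES cells had been kept with LIF on mouse embryonic fibroblast feeders, which can remain in the day 0 samples. The RNA of Terc itself was not analysed here, so the genotypes rest on the labels.

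Insulin receptor and Igf1r are membrane tyrosine kinases that, once bound by insulin, IGF1 or IGF2, phosphorylate docking proteins of the IRS family. The phosphorylated docking proteins recruit PI3-kinase and Grb2 and so pass the signal to Akt, TOR and FoxO factors and to the Ras pathway. IGF-binding proteins are secreted carriers that hold IGFs in serum and tissue fluid, and they can withhold the ligand from Igf1r or release it when proteases cut them. In the mouse embryo, IGF2 acting through Igf1r is a main driver of growth.

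The day 0 arrays differed in scale from the others, for a reason that the sources used here do not give. Their median intensities ran from 113.6 to 117.0, against 50.6 to 53.1 for days 8 and 15. Day 0 levels are therefore set beside later ones only as percentiles within an array. In the marker lists, 9 of 10 pluripotency genes were higher in KO than in WT cells at day 15 (limma adjusted p under 0.05), and 7 of 11 fibroblast and mesenchyme genes, 5 of 12 yolk sac and liver endoderm genes and 8 of 9 endothelial genes were lower, beside 8.77% of all genes higher and 8.25% lower. Of 10 neural progenitor genes 4 were higher and 1 lower, and of 9 smooth and cardiac muscle genes 1 was higher and 0 lower. The marker lists were chosen with earlier results of these data known, so these counts are a description. The summed neural list was 2871 and 2661 in KO, against 1238 and 1176 in WT cells at day 15. At day 8 it was 2773 and 2769 in KO, against 2037 and 1211 in WT cells. Much of the gap between these sums was Otx2 alone. It read 1037 and 959 in KO against 81.1 and 118 in WT cells at day 15. At day 8 it read 1301 and 1275 in KO against 763 and 288 in WT cells. The median log2 difference of the neural list was 0.30 at day 15 and 0.26 at day 8. Summed fibroblast and mesenchyme intensity was 12530 and 18190 on the KO arrays of day 15, against 82750 and 62140 on the WT arrays. At day 8 it was 4892 and 5173 on the KO arrays, against 7822 and 29480 on the WT arrays, so that the 2 WT arrays of that day stood apart from each other. The summed level of the pluripotency list was 19610 and 18390 on the KO arrays of day 15, against 2578 and 7805 on the WT arrays. At day 0 it was 66410 and 67750 in KO and 64280 and 63890 in WT cells, and the fibroblast list summed to 6021 and 9223 in KO and 3344 and 5550 in WT cells. None of the 61 marker genes measured was listed at 0, but some were dim. At day 15, 5 of 9 endothelial genes in KO and 3 in WT cells averaged under the array median. At day 0, so did 9 of 12 yolk sac and liver endoderm genes in KO and 10 in WT cells. The marker lists moved with several of the differences given below, and their part in them was not tested. In such bulk samples, fewer cells of a type and less RNA per cell cannot be told apart.

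**Figure D1:**
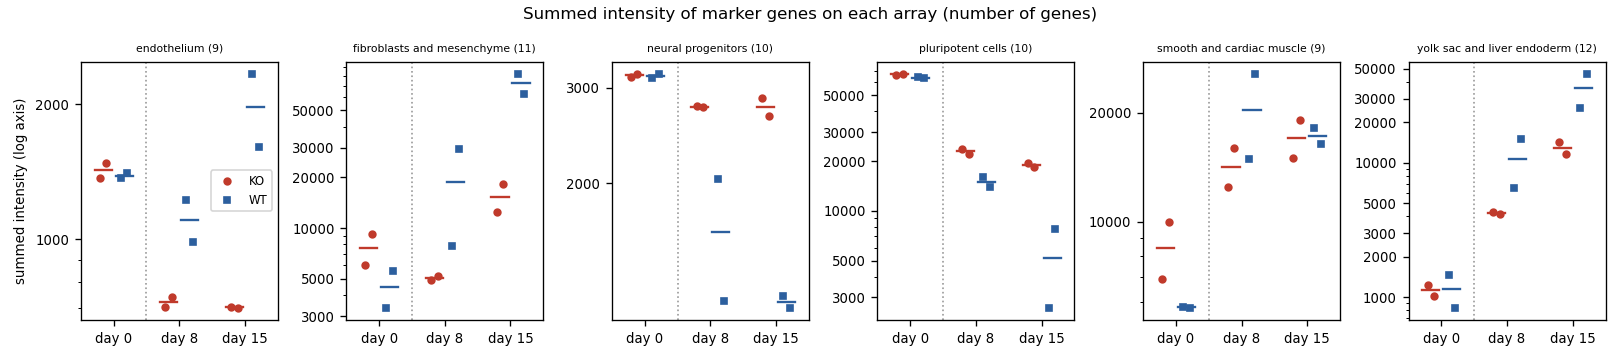
Summed intensity of 6 marker lists on each array (log axis), by day, with KO as circles left of WT as squares. Horizontal bars are means of 2 arrays, and the dotted line parts day 0, which differs in scale. At day 15 the fibroblast and mesenchyme sum is 12530 and 18190 on KO arrays and 82750 and 62140 on WT arrays, and the WT arrays of day 8 lie far apart (7822 and 29480).

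Promoters were read for the 4 genes whose group means spanned the widest range over days 8 and 15: Irs4 (3.51 on the log2 scale), Igfbp7 (2.78), Igfbp5 (2.42) and Igfbp4 (1.66). RefSeq windows of the mouse build GRCm38.p6, from 250 bases before to 50 bases after the annotated start, matched 9 of the 10 genes in 10 windows, and Insr had none. The motifs searched on both strands were the Sp1-type GC box GGGCGG, the TATA box TATAAA, the FoxO consensus TGTTTAC and the E-box CACGTG; capitals mark their matches, none of which overlap in the windows shown.
Irs4, chrX:141725168-141725467, minus strand: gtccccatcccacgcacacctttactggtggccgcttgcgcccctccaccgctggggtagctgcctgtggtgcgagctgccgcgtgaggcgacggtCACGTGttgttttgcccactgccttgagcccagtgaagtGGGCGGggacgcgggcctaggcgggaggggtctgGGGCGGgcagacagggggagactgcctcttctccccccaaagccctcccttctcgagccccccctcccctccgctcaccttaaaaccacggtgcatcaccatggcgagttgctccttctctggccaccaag
Igfbp4, chr11:99040994-99041293, plus strand: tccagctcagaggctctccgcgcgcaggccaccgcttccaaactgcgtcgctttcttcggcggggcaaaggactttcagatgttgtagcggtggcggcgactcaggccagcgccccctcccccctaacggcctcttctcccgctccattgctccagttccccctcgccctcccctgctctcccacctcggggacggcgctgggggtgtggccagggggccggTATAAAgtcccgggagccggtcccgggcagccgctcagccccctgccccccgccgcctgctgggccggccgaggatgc
Igfbp5, chr1:72874816-72875115, minus strand: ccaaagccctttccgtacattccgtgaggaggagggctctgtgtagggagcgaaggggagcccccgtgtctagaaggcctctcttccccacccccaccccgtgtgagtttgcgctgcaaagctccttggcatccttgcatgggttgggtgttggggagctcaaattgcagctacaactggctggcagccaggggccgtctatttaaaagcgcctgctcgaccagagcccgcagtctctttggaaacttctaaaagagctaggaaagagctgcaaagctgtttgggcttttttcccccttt
Igfbp7, chr5:77407996-77408295, minus strand: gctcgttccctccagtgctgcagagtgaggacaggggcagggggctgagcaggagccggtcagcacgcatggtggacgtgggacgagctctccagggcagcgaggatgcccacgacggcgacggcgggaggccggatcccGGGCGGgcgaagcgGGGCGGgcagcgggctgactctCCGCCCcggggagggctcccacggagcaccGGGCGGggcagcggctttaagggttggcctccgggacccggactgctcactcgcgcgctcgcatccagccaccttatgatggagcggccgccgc
The Igfbp7 window held 4 GC boxes and the Irs4 window 2, a motif present in 35.7% of 32851 windows of the same length. Igfbp4 was the only one of the 4 with an exact TATAAA match (13.6% of all windows), and Irs4 the only one with an exact CACGTG match (7.15%). Variant spellings of the motifs were not searched, so a window without a match can still hold such an element. Igfbp5 held none of the motifs and had 10 CpG dinucleotides, against 19 in Irs4, 27 in Igfbp4 and 33 in Igfbp7; the median over all windows was 7. No FoxO consensus was found in the windows of the 9 genes (3.65% of all windows hold it). These matches are letters in a window, and no measurement here bears on binding.

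Irs4, an X-linked docking protein best known from the hypothalamus, was the docking protein that differed most between genotypes on the brightest probe sets. Its brightest probe set (1441429_at) read 1171 and 1557 on the KO arrays of day 8, against 355 and 149 on the WT arrays, and 994 and 1196 on the KO arrays of day 15, against 99.9 and 140 on the WT arrays. All KO arrays of both days stood above all WT arrays, with a log2 difference of 2.56 ± 0.34 at day 8 and 3.21 ± 0.34 at day 15 (estimate ± SE, n = 2 arrays per group here and below). At day 0 the gene was dim in both genotypes, with 57.5 and 53.5 on KO and 58.2 and 64.9 on WT arrays, at the 24.6th percentile of the array in KO and the 28.8th in WT cells. By day 8 it stood at the 95.1st percentile in KO and the 76.4th in WT cells, and by day 15 at the 94.2nd and the 66.3rd. Its promoter is the one with the E-box and 2 GC boxes printed above. The other Irs4 probe set (1422248_at) stayed under the array median in every group of days 8 and 15. It read 43.2 and 41.9 in KO against 38.5 and 32.8 in WT cells at day 8 (0.26 ± 0.14). At day 15 it read 39.2 and 32.9 in KO against 35.4 and 32.1 in WT cells, which overlapped (0.09 ± 0.14). The large differences of days 8 and 15 were thus seen on the brightest probe set only.

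The size of the Irs4 difference at day 8 depended on which WT array was used. It was 3.18 without WT replicate 1 and 1.93 without WT replicate 2, which holds the larger fibroblast sum. At day 15 it ranged from 2.96 to 3.45 as each of the 4 arrays was left out. With the mean over both probe sets in place of the brighter it was 1.41 at day 8 and 1.65 at day 15. Between days 8 and 15 the 2 KO groups overlapped (log2 difference of day 15 against day 8, -0.31 ± 0.34), whereas both WT arrays of day 15 lay below both of day 8 (-0.96 ± 0.34). That WT change was -0.33 without WT replicate 1 of day 8 and -1.59 without its replicate 2.

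Irs1 and Irs2, the widely expressed docking proteins that carry most insulin signalling in muscle and liver, did not follow Irs4. Irs1 (1423104_at) read 916 and 1073 on the KO arrays of day 8, against 1068 and 2306 on the WT arrays, and the groups overlapped. At day 15 it read 826 and 1108 in KO cells, against 1724 and 1525 in WT cells, with both KO arrays below both WT arrays. The log2 difference was -0.66 ± 0.29 at day 8 and -0.76 ± 0.29 at day 15. Without WT replicate 1 the day 8 value was -1.22, and without WT replicate 2 it was -0.11. Irs1 was near the middle of the array at day 0 (54.4th percentile in KO, 57.9th in WT cells, with a log2 difference of -0.13 ± 0.29) and above the 93rd percentile in all later groups, and within each genotype the groups of days 8 and 15 overlapped.

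Irs2 (1443969_at) was the docking protein whose order turned between the days. It read 475 and 554 on the KO arrays of day 8, against 586 and 618 on the WT arrays, and then 595 and 588 on the KO arrays of day 15, against 417 and 441 on the WT arrays. The KO arrays thus lay below the WT arrays at day 8 (-0.23 ± 0.13) and above them at day 15 (0.46 ± 0.13). Within genotypes, day 15 stood above day 8 in KO cells (0.21 ± 0.13) and below it in WT cells (-0.49 ± 0.13). At day 0 the 2 genotypes overlapped (-0.02 ± 0.13), with 399 and 355 in KO and 423 and 342 in WT cells.

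**Figure D2:**
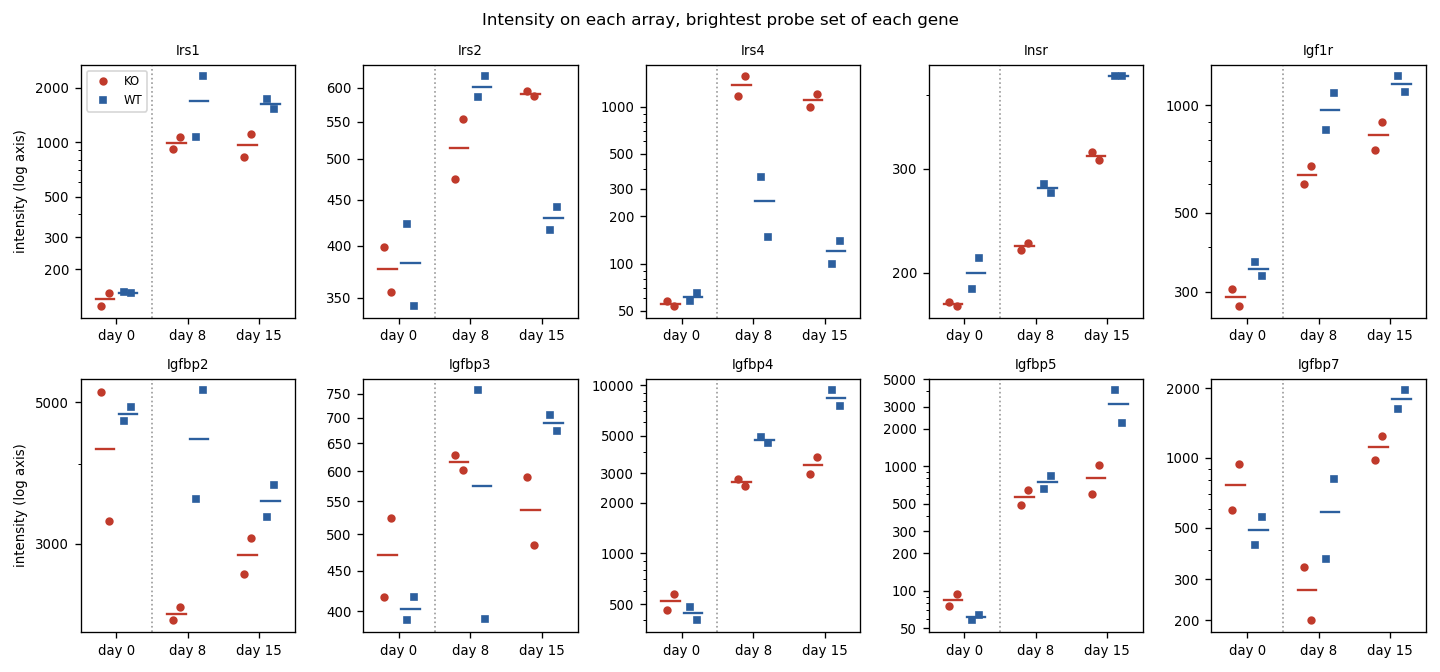
Intensity (log axis) of the brightest probe set of each of the 10 genes on each array, by day. KO is shown as circles left of WT as squares, with bars at the mean of 2 arrays. A dotted line parts day 0 from the later days, which differ from it in scale. Irs4 is between 994 and 1557 on the KO arrays of days 8 and 15 and between 99.9 and 355 on the WT arrays, while Igfbp4 is lower on every KO array than on any WT array of those days.

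On their brightest probe sets, the KO arrays of both receptors lay below the WT arrays at every day. Insr (1434446_at), the insulin receptor, read 219 and 225 on the KO arrays of day 8, against 283 and 273 on the WT arrays. At day 15 it read 320 and 311 in KO and 430 and 430 in WT cells. The arrays of the 4 later groups did not overlap, and their order was WT at day 15, KO at day 15, WT at day 8 and KO at day 8. The log2 difference between KO and WT was -0.32 ± 0.11 at day 8 and -0.45 ± 0.11 at day 15, and the change between the days was 0.51 ± 0.11 in KO and 0.63 ± 0.11 in WT cells. Day 0 had the same sign (179 and 176 in KO, 188 and 212 in WT cells, -0.17 ± 0.11). The other 2 Insr probe sets, 1421380_at and 1450225_at, were under the array median in every group of days 8 and 15, with values of 19.1 to 35.8. Their differences between KO and WT cells were -0.47 and 0.09 at day 8, and -0.22 and -0.27 at day 15. By the mean over the 3 probe sets, the change between the days was 0.22 in KO and 0.30 in WT cells.

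Igf1r (1452982_at), the receptor of IGF1 and IGF2, read 602 and 677 on the KO arrays of day 8, against 853 and 1085 on the WT arrays. At day 15 it was 751 and 900 in KO cells, against 1205 and 1090 in WT cells. KO arrays lay below WT arrays on both days, with a log2 difference of -0.59 ± 0.15 at day 8 and -0.48 ± 0.15 at day 15, and also at day 0 (306 and 273 in KO, 363 and 333 in WT cells, -0.27 ± 0.15). Day 15 stood above day 8 in KO (0.37 ± 0.15) and in WT cells (0.25 ± 0.15). The 5 probe sets of Igf1r fell into 2 kinds. The probe sets 1428967_at and 1426565_at ran with the brightest over the 8 arrays of days 8 and 15 (Pearson r of 0.93 to 0.96 among these 3, a description over arrays that share 4 groups) and were lower in KO cells at day 8 (-0.73 ± 0.18 and -0.50 ± 0.13) and day 15 (-0.48 ± 0.18 and -0.29 ± 0.13). The dimmer 1452108_at and 1446303_at were slightly higher in KO cells at day 15 (0.18 ± 0.12 and 0.20 ± 0.17). At day 0 these 2 and 1426565_at were higher in KO cells (0.24, 0.33 and 0.19), so the day 0 direction rests on the probe set. The mean over the 5 probe sets differed by 0.04 at day 0, -0.34 at day 8 and -0.17 at day 15. By that mean, the change between the days was 0.08 in KO and -0.09 in WT cells, and on the brightest probe set the WT change was 0.08 without WT replicate 1 of day 8.

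Igfbp4, a binding protein that restrains IGF action until the protease Pappa cuts it, was lower in KO cells on every probe set at both later days. Its brightest probe set (1437405_a_at) read 2777 and 2516 on the KO arrays of day 8, against 4913 and 4547 on the WT arrays. At day 15 it read 2973 and 3751 in KO and 9308 and 7503 in WT cells. None of the 4 groups overlapped, and the order was WT at day 15, WT at day 8, KO at day 15 and KO at day 8. The log2 difference between genotypes was -0.84 ± 0.16 at day 8 and -1.32 ± 0.16 at day 15. The change between the days was 0.34 ± 0.16 in KO and 0.82 ± 0.16 in WT cells, and the genotype difference in that change was -0.49 ± 0.22. At day 0 the genotypes overlapped, with 463 and 574 in KO and 481 and 400 in WT cells (0.23 ± 0.16).

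The other 5 Igfbp4 probe sets spanned a wide range of brightness and had the same signs. Their KO against WT differences ran from -1.06 to -0.21 at day 8 and from -2.20 to -0.95 at day 15, and their changes between the days from 0.02 to 0.35 in KO and from 0.76 to 1.46 in WT cells. The largest day 15 difference was that of 1423756_s_at, with 912 and 1429 on the KO arrays and 6349 and 4322 on the WT arrays. The one exception to separate groups at day 8 was 1421991_a_at, which read 106 and 107 in KO and 143 and 106 in WT cells. All 6 probe sets may read overlapping stretches of 1 transcript and are not independent. Over the 8 later arrays their pairwise Pearson r was 0.93 to 0.998.

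Igfbp5, a binding protein that also attaches to extracellular matrix, gave opposite directions on its 2 probe sets. The brighter, 1452114_s_at, read 486 and 651 on the KO arrays of day 8, against 661 and 835 on the WT arrays, and 599 and 1026 on the KO arrays of day 15, against 4069 and 2231 on the WT arrays. The KO groups lay below the WT groups on both days, with a log2 difference of -0.40 ± 0.31 at day 8 and -1.94 ± 0.31 at day 15. The WT change between days 8 and 15 was 2.02 ± 0.31 without overlap, whereas the KO groups of the 2 days overlapped (0.48 ± 0.31), and the genotype difference in the change was -1.54 ± 0.44. The KO change was 0.09 without KO replicate 2 of day 15 and 0.87 without its replicate 1. The other probe set, 1422313_a_at, read 402 and 267 on the KO arrays of day 15, against 222 and 197 on the WT arrays, and was higher in KO cells by 0.65 ± 0.22 there and by 0.51 ± 0.22 at day 8. Its days overlapped in WT cells (0.21) but not in KO cells (0.35), with a genotype difference in the change of 0.14. At day 0 both probe sets had higher values in KO cells (0.46 ± 0.31 and 0.26 ± 0.22). With the mean over both probe sets in place of the brighter, the day 15 difference was -0.65, the day 8 difference 0.05, the WT change 1.11 and the genotype difference in the change -0.70. Which of them follows the gene was not tested, so the direction of Igfbp5 rests on the probe set.

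Igfbp7, a secreted protein related to the binding proteins that binds IGFs weakly, differed more between the days than between the genotypes on its brightest probe set with all arrays. On 1423584_at it read 338 and 199 on the KO arrays of day 8, against 365 and 809 on the WT arrays, and 980 and 1246 on the KO arrays of day 15, against 1624 and 1957 on the WT arrays. Day 15 stood above day 8 in both genotypes, by 2.09 ± 0.39 in KO and 1.71 ± 0.39 in WT cells, with no overlap. The WT change was 1.14 without WT replicate 1 of day 8 and 2.29 without its replicate 2, and by the mean over the 3 probe sets the changes were 0.94 in KO and 0.65 in WT cells. KO cells lay below WT cells, with a log2 difference of -1.07 ± 0.39 at day 8 and -0.69 ± 0.39 at day 15, and above them at day 0 (597 and 939 in KO, 423 and 555 in WT cells, 0.63 ± 0.39). The day 8 difference was -1.64 without WT replicate 1 and -0.49 without WT replicate 2. Without WT replicate 1 it was thus larger in size than the WT change. The probe set 1437804_at moved far less, with differences of 0.12 ± 0.12 at day 8 and 0.13 ± 0.12 at day 15. The third, 1423585_at, was under the array median in all later groups. Its difference was -0.46 at day 8 and 0.02 at day 15, and its change 0.43 in KO and -0.04 in WT cells. The mean over the 3 probe sets differed by -0.47 at day 8 and -0.18 at day 15.

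Igfbp2, a binding protein abundant in embryonic tissues, was among the brightest 3% of probe sets in all 6 groups. It read 2277 and 2392 on the KO arrays of day 8, against 3533 and 5220 on the WT arrays, and 2691 and 3066 on the KO arrays of day 15, against 3303 and 3708 on the WT arrays. KO arrays lay below WT arrays on both days, with a log2 difference of -0.88 ± 0.21 at day 8 and -0.28 ± 0.21 at day 15. Day 15 stood above day 8 in KO cells (0.30 ± 0.21) and overlapped it in WT cells (-0.30 ± 0.21). At day 0 the genotypes overlapped, with 5186 and 3264 in KO and 4669 and 4921 in WT cells.

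Igfbp3, the main IGF carrier of adult serum, varied least of the 10 genes, with group means of days 8 and 15 within 0.37 on the log2 scale. It read 629 and 601 in KO and 757 and 392 in WT cells at day 8, which overlapped, and 589 and 485 in KO and 705 and 674 in WT cells at day 15, which did not. The differences were 0.18 ± 0.25 and -0.37 ± 0.25, and the day 8 value turned to -0.30 without WT replicate 2 and was 0.65 without WT replicate 1. The second probe set gave 0.09 ± 0.22 and -0.22 ± 0.22. At day 0 the brighter probe set read 417 and 524 in KO and 390 and 417 in WT cells (0.21 ± 0.25).

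**Figure D3:**
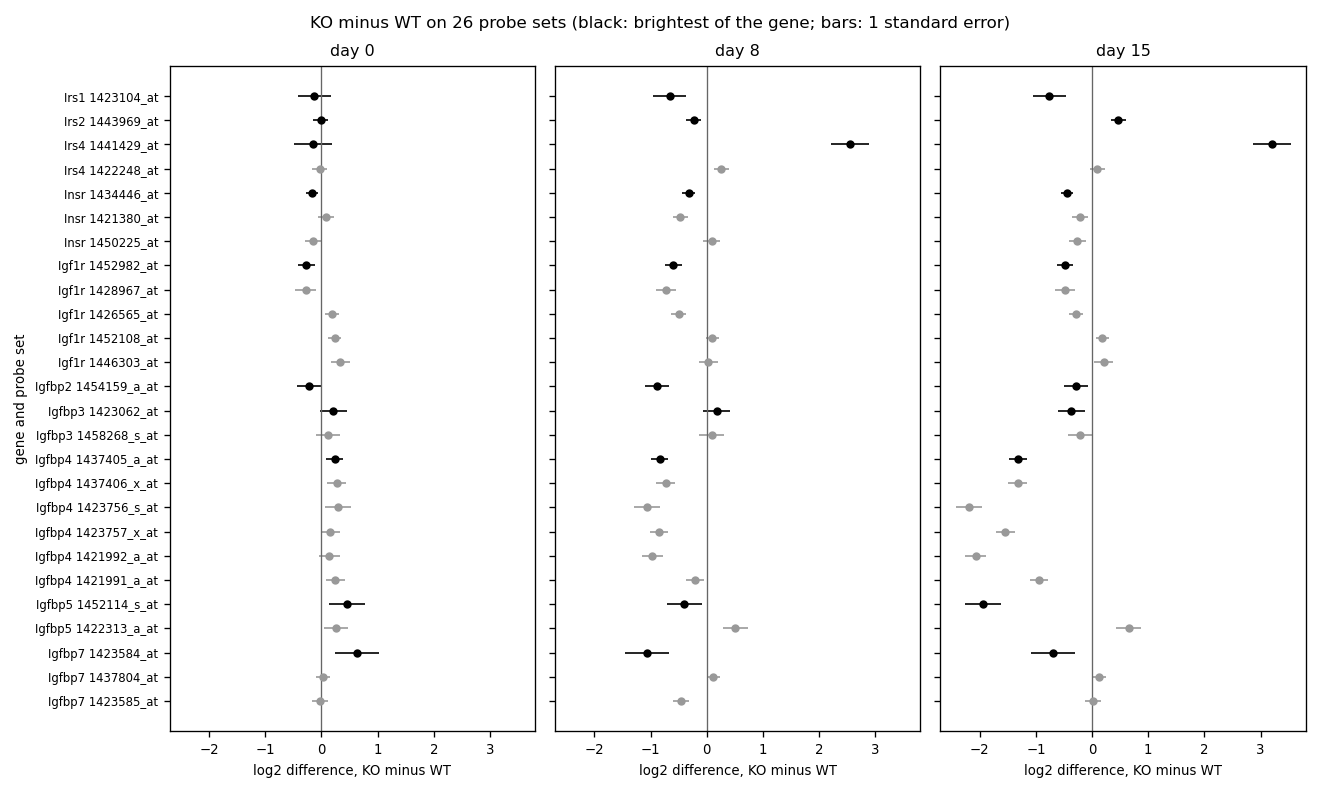
Log2 difference of KO minus WT on all 26 probe sets, in 1 panel per day, with bars of 1 standard error and the brightest probe set of each gene in black. Irs4 1441429_at lies at 2.56 and 3.21 at days 8 and 15, all 6 Igfbp4 probe sets lie below 0 on both days, and on both days the 2 Igfbp5 probe sets lie on opposite sides of 0.

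Counted over the 26 probe sets, KO arrays lay all above WT arrays on 10 and all below on 5 at day 0, on 4 and 15 at day 8, and on 6 and 18 at day 15. Groups of 2 against 2 arrays did not overlap on 47.9% of all probe sets at day 0, 43.5% at day 8 and 54.2% at day 15. The median log2 difference of the 26 was 0.13 at day 0, -0.43 at day 8 and -0.33 at day 15, beside 0.04, 0.03 and 0.04 over all probe sets. By limma at an adjusted p under 0.05, no member probe set was called at day 0 (0 also at an unadjusted p under 0.05; 0.0488% of all probe sets were called). At day 8, 1 was called higher and 3 lower, beside 0.513% and 0.615% of all probe sets (1.13% in either direction). At day 15, 2 were called higher and 8 lower, beside 6.45% and 6.45% of all probe sets (12.9% in either direction). Nothing is read from these counts, because the genes were chosen with the same contrasts known. The comparisons at the 3 days share no arrays.

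Between day 8 and day 15, the arrays of the later day lay all above on 13 and all below on 4 of the 26 probe sets in KO cells, and on 12 and 4 in WT cells, where 46.7% and 51.0% of all probe sets did not overlap in KO and in WT cells. Limma called 0 of 26 in KO cells (5 at an unadjusted p under 0.05; 0.02% of all probe sets called) and 9 higher and 1 lower in WT cells, beside 6.89% and 9.16% of all probe sets (16.0% in either direction). The order of these counts turned when the fit held only the arrays compared. More were then called in KO than in WT cells, among the 26 and over all probe sets, so the counts do not rank the genotypes. The genotype difference in this change was called for 0 of 26 probe sets (9 at an unadjusted p under 0.05; 0.422% of all). The sign of the change was shared by KO and WT cells for Irs4, Insr, Igf1r, Igfbp4, Igfbp5 and Igfbp7 on their brightest probe sets, and opposite for Irs1, Irs2, Igfbp2 and Igfbp3. The Irs1 changes were -0.05 in KO and 0.05 in WT cells, and each turned its sign as single arrays were left out (-0.26 to 0.16 in KO, -0.51 to 0.60 in WT cells). The Igfbp3 change in WT cells, 0.34, turned to -0.14 without WT replicate 2 of day 8, which gives it the sign of KO cells, and by the mean over its probe sets that of Igf1r differed in sign between the genotypes.

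**Figure D4:**
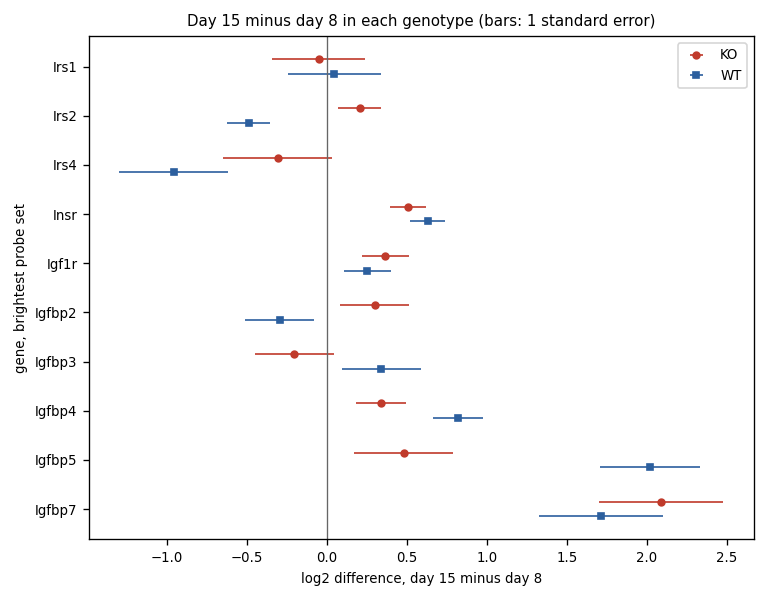
Log2 difference of day 15 minus day 8 for the brightest probe set of each gene, in KO (circles, upper) and WT cells (squares, lower), with bars of 1 standard error. Igfbp5 lies at 0.48 in KO and 2.02 in WT cells, Igfbp7 at 2.09 and 1.71, and Irs2 on opposite sides of 0.

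Genes whose levels ran most like those of the 4 widest-ranging members were found by Pearson r of log2 intensity over the 8 arrays of days 8 and 15, among 9569 genes. Irs4 ran closest to Nptx2 (0.992), a neuronal pentraxin, Chga (0.992), a secretory granule protein, and Rbm8a (0.989), an exon junction protein. Chga read 398 and 470 in KO and 134 and 66.1 in WT cells at day 8, and 482 and 403 in KO and 41.1 and 63.9 in WT cells at day 15, the same order of groups as Irs4 apart from the overlapping KO groups. Igfbp4 ran closest to Unc5c (0.994), a netrin receptor, Bloc1s5 (0.992) and Ptprd (0.992), a receptor phosphatase. Igfbp5 on its brighter probe set ran closest to Lrig2 (0.991), Hspb7 (0.99) and Zfp148 (0.989), and Igfbp7 to Herpud1 (0.987), an endoplasmic reticulum stress protein, Thtpa (0.978) and Dnajc1 (0.977). With 8 arrays in 4 groups, such values mostly repeat the order of the groups, and no p is given.

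The rest of the pathway was read on a list of 47 other genes, of which 42 were analysed here. That list was also chosen with earlier results of these data known. KO and WT cells differed on 5 of them at day 15 (1 higher, 4 lower; limma adjusted p under 0.05), that is 11.9% beside 17.0% of all genes (8.77% higher, 8.25% lower), and the list median was -0.01 beside 0.04 over all genes. At day 0 and at day 8, 0 of 42 were called (2 and 9 at an unadjusted p under 0.05), beside 0.033% and 1.57% of all genes. In WT cells, 5 rose and 2 fell between day 8 and day 15, beside 9.61% and 11.4% of all genes (21.0% in either direction), and in KO cells 1 rose (0.0275% of all genes). When the fit held only the arrays compared, more of the list was called in KO than in WT cells, so these counts do not rank the genotypes. The genotype difference in the change was called for 1 gene (0.687% of all genes).

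Igf1, the ligand of Igf1r, was lower in KO cells at day 15, with 49.2 and 86.3 on the KO arrays against 594 and 588 on the WT arrays (log2 difference -3.18 ± 0.34, limma adjusted p = 0.000575, below in 2 of 2 KO arrays). In WT cells it rose between the days, with 594 and 588 at day 15 against 48.1 and 103 at day 8 (3.07 ± 0.34, limma adjusted p = 0.00056). In KO cells it had 49.2 and 86.3 at day 15 and 28.3 and 30.4 at day 8 (1.15 ± 0.34, limma adjusted p = 0.291), and the difference between these changes did not pass the test (-1.92 ± 0.49, limma adjusted p = 0.153). The KO groups of days 8 and 15 and the WT group of day 8 stood at array percentiles 35.2, 54.4 and 56.4. The sizes of these differences are therefore uncertain. The day 15 call and that of the WT rise share the WT arrays of day 15. Both Igf1 calls held in the 21 and 20 limma alternatives run; under the methods' 2-group test with adjustment, no probe set on the array was called in either comparison.

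Igfbp1, a binding protein of liver and decidua that insulin represses, had the same direction. It read 184 and 160 on the KO arrays of day 15, against 1144 and 2113 on the WT arrays (-3.18 ± 0.25, limma adjusted p = 8.4e-05). It rose between the days in both genotypes, by 3.21 ± 0.25 in KO (limma adjusted p = 0.00344) and 5.56 ± 0.25 in WT cells (limma adjusted p = 4.96e-06), and the KO rise minus the WT rise was -2.34 (limma adjusted p = 0.0243). The day 8 levels were dim, with 19.3 and 17.8 in KO cells, under the lower quartile of those arrays (20.2), and 28.2 and 38.6 in WT cells, under the array medians, so the sizes of both rises and of their difference are uncertain. Without KO replicate 1 of day 8 or either KO array of day 15, the KO rise was 3.27, 3.11 and 3.31 with a limma adjusted p of 0.0526, 0.105 and 0.125 (over the limma alternatives, 2.06e-05 to 0.125). Igfbp1 is made by liver and yolk sac endoderm, whose marker list summed to 14310 and 11610 on the KO arrays and 25420 and 46000 on the WT arrays of day 15. Most of these sums was Ttr, Afp, Rbp4, Apoa1 and Apob. Of the 12 genes listed, KO arrays lay all below WT arrays on 7 and all above on 0. Foxa2 (0.70 ± 0.41) and Sox17 (0.82 ± 0.61) had higher means in KO cells, with overlapping arrays. The part of this list in the Igfbp1 difference was not tested.

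Igf2, the main IGF of the embryo, was among the brightest genes of the array, with 11230 and 12770 in KO and 20790 and 17820 in WT cells at day 15 (-0.68 ± 0.49, limma adjusted p = 0.434). At day 8 it read 6930 and 8247 in KO and 9971 and 16530 in WT cells (-0.76 ± 0.49, limma adjusted p = 0.538). Igf2r, which clears IGF2, read 2678 and 3522 in KO and 5870 and 4529 in WT cells at day 15 (-0.75 ± 0.31, limma adjusted p = 0.161). Every KO array lay below every WT array in these 3 comparisons, none of which passed the test. Ins2 and Insrr were dim, at 25.6 to 79.2 on days 8 and 15, and passed no test.

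Downstream, Akt1 and Akt2, the kinases activated through PI3-kinase, were lower in KO cells at day 15. Akt1 read 692 and 774 in KO and 1459 and 1176 in WT cells (-0.84 ± 0.16, limma adjusted p = 0.00635), and Akt2 read 260 and 299 in KO and 547 and 441 in WT cells (-0.82 ± 0.14, limma adjusted p = 0.00384). Neither call held without KO replicate 1 of day 15 (limma adjusted p = 0.0773 for Akt1 and 0.0543 for Akt2), and that of Akt1 was also lost without WT replicate 1 (limma adjusted p = 0.061); over the limma alternatives the adjusted p was 0.000717 to 0.0773 for Akt1 and 0.00109 to 0.0543 for Akt2. Stc2, an inhibitor of the protease Pappa, was higher in KO cells, with 178 and 131 against 93.8 and 97.4 in WT cells (0.68 ± 0.17, limma adjusted p = 0.0235; 0.00668 to 0.209 over the limma alternatives). The Stc2 call was lost without KO replicate 1 (limma adjusted p = 0.209), WT replicate 1 (0.113) or WT replicate 2 (0.057), and with only the arrays compared (0.0567). Of the other 12 genes measured in the PI3-kinase, Akt and TOR group, and of the 11 adaptors and phosphatases and 3 FoxO genes, 0 passed the test at day 15.

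In WT cells between the days, Akt1 (0.81 ± 0.16, limma adjusted p = 0.00637), Akt2 (0.56 ± 0.14, limma adjusted p = 0.0207) and Stc1 (0.56 ± 0.16, limma adjusted p = 0.0339) rose with Igf1 and Igfbp1. Ptpn1, a phosphatase that acts on the insulin receptor, read 560 and 538 at day 15 against 793 and 831 at day 8 (-0.56 ± 0.11, limma adjusted p = 0.00501), and Eif4ebp1, a translation repressor that TOR inactivates, read 1943 and 2313 at day 15 against 2742 and 2961 at day 8 (-0.43 ± 0.10, limma adjusted p = 0.0119). These 5 calls were lost when the fit held the WT arrays of both days alone (limma adjusted p from 0.143 for Akt1 to 0.229 for Akt2), and all but that of Ptpn1 also without WT replicate 1 of day 15. The Akt2 call was also lost without WT replicate 1 of day 8 (limma adjusted p = 0.105). That of Stc1 was also lost without WT replicate 2 of day 8 (0.138), without either WT array of day 0 (0.0535 each), after quantile scaling (0.0639) and with the mean over its probe sets (0.158). The calls of Igf1 and Igfbp1 in WT cells held under all of these.

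**Figure D5:**
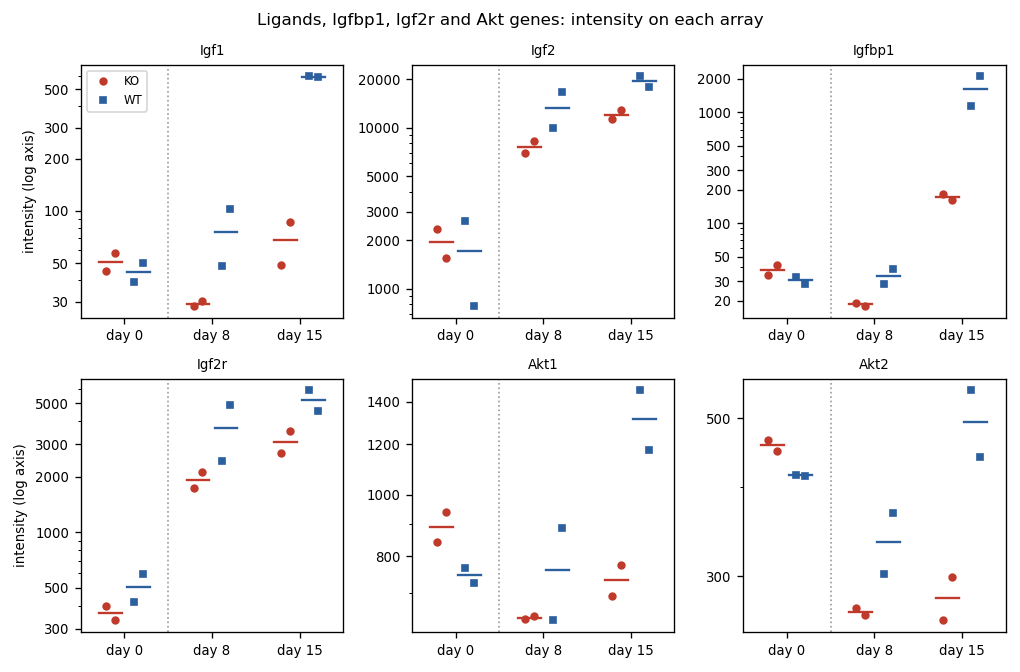
Intensity (log axis) of Igf1, Igf2, Igfbp1, Igf2r, Akt1 and Akt2 on each array, by day, with KO as circles left of WT as squares, bars at the mean of 2 arrays and a dotted line after day 0. At day 15 Igf1 reads 49.2 and 86.3 on KO arrays and 594 and 588 on WT arrays, and the KO arrays lie below the WT arrays in all 6 panels.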

How the data were processed

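Total RNA of 12 samples was hybridised to 12 single-colour arrays. The deposited values are the authors' processed linear intensities; the submitters' processing notes name MAS5 without a version or settings. Of 45101 probe sets, 64 manufacturer's controls were left out. GEO's platform annotation gave 1 symbol to 34945 of the 45037 tested, several to 932 and none to 9160, and these last 2 kinds were not named. Deposited intensities were floored at 1 and turned to log2. A model with 1 mean per group over all 12 arrays was fitted with limma 3.58.1 (R 4.3.3, trend and robust moderation, two-sided, Benjamini-Hochberg over 45037 probe sets, threshold 0.05) and tested on simulated data. KO was compared with WT within each day, and day 15 with day 8 within each genotype. Genes were read on the probe set brightest over the 12 arrays. The members, the pathway and marker lists and the alternatives were chosen with earlier results of these data known. Named were all 10 members, the ligands and other receptors, up to 6 pathway genes per direction that passed, and the 3 genes most like each of the 4 widest-ranging members, among genes averaging at least 100 on days 8 and 15. No detection call was used. Of the 47 pathway genes listed, 42 were analysed here; the others and the marker Fbn1 are not reported. Alternatives were an offset of 32, quantile and median scaling, brighter probe sets only, plain moderation, the replicate number as a block, a fit of the compared arrays alone, the mean over a gene's probe sets, the methods' t-test, the methods' 1.8-fold rule and each array left out. The methods name the t-test for 2 groups, not for the arrays. With 2 arrays per group, their number limits the precision. Promoters came from RefSeq through Python 3.11.15.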

Additional observations from a re-analysis of the deposited data

Results flagged for a closer look

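The change of Igfbp1 between day 8 and day 15 differed between the genotypes: the rise was 3.21 in KO and 5.56 in WT cells, a difference of -2.34 on the log2 scale (limma adjusted p = 0.0243). The day 8 levels behind both rises were dim, with 19.3 and 17.8 in KO and 28.2 and 38.6 in WT cells, under the array medians of 50.6 to 53.1, so the sizes of the rises and of their difference are uncertain. That call was lost in 7 of 20 limma alternatives, with a limma adjusted p of 0.1 when only the arrays compared were fitted and 0.127 without KO replicate 1 of day 8 (0.0024 to 0.127 over all of them). The other 5 left out KO replicate 2 of day 8 (0.0993), KO replicate 1 or 2 of day 15 (0.122 and 0.118) and WT replicate 1 or 2 of day 0 (0.0572 and 0.0575).

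Irs2 stood apart because both KO arrays of day 15 lay above both of day 8 while both WT arrays of day 15 lay below both of day 8. The changes were 0.21 in KO and -0.49 in WT cells, a difference of 0.69 ± 0.19 (SE). The limma fit did not call that difference at an adjusted p under 0.05, and no p is read from it, since Irs2 was chosen with these contrasts known.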

How the results depend on the processing

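Limits: each group holds 2 arrays, and the shared spread lets arrays outside a comparison move its calls. Of the members' log2 differences under alternatives, 1179 moved by less than the spread between replicates, or not at all, and 81 by more. No called value changed sign. Many of the 1179 were fixed in advance. Plain moderation, brighter probe sets only, the replicate block and a fit of the compared arrays alone leave a log2 difference unchanged. So does leaving out an array outside the comparison. The tally is therefore no measure of how stable the differences are. At day 15 the KO against WT differences of all 10 members kept their sign. At day 8 those of Igfbp3 and Igfbp5 did not, with ranges of -0.30 to 0.65 and -0.61 to 0.05. The causes of the moves below were not tested.

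Calls are counted among 26 member probe sets and 42 pathway genes. KO against WT at day 0 gave 0 member calls and 1 by the methods' t-test unadjusted; the pathway gave 0, with 1 at an offset of 32 and 5 by the unadjusted t-test. At day 8 the members gave 4, with 2 after quantile scaling, 1 with plain moderation, 0 with only the arrays compared, 7 by the unadjusted t-test and 0 after Benjamini-Hochberg; the pathway gave 0, with 1 by the unadjusted t-test and 4 by the 1.8-fold rule. At day 15 the adjusted t-test gave 0 in place of 10 members and 0 in place of 5 pathway genes, and the 1.8-fold rule 2 pathway genes. For day 15 against day 8 in KO cells, the members gave 0, with 2 on only the arrays compared, 4 by the unadjusted t-test and 1 by the 1.8-fold rule; the pathway gave 1, with 5, 4 and 3 under these, and 0 by the adjusted t-test. In WT cells the members gave 10, with 1 on only the arrays compared, 0 by the adjusted t-test and 6 by the 1.8-fold rule; the pathway gave 7, with 2, 0 and 2 under these, and 3 by the unadjusted t-test. The genotype difference in the change gave 1 pathway gene, with 2 at an offset of 32 and 0 on only the arrays compared.

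As each array was left out, member calls ran from 0 to 0 at day 0, 0 to 12 at day 8 (12 without WT replicate 1 of day 8, 2 without its replicate 2, 0 without either KO array of that day and 1 without either WT array of day 0) and 7 to 14 at day 15. They ran from 0 to 1 for the change in KO cells, 5 to 11 in WT cells and 0 to 2 for its genotype difference. Pathway calls ran from 0 to 1, 0 to 5 (5 without WT replicate 1 of day 8) and 2 to 10 at the 3 days (2 without KO replicate 1 and 3 without WT replicate 1 of day 15, 10 without either WT array of day 8), and from 0 to 1, 3 to 11 and 0 to 3 for the changes.

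Calls over all probe sets moved as well. Fitting only the arrays compared gave 1 in place of 22 at day 0, 0 in place of 508 at day 8, 1273 in place of 9 for the change in KO cells, 367 in place of 7227 in WT cells and 29 in place of 190 for its genotype difference. The order of the KO and WT counts for the change between the days thus turned with the fit. At day 15, 5807 calls became 1720 without KO replicate 1, 3360 without KO replicate 2 and 2635 without WT replicate 1. The adjusted t-test called 2 probe sets at day 0 and 0 in the other comparisons.

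Replicate numbers were not shown to pair the samples: deviations of same-numbered arrays correlated at 0.0107 on day 0, 0.105 on day 8 and -0.145 on day 15, over 22519 brighter probe sets. With the replicate block, 1 pathway gene was called at day 8 in place of 0, members gave 9 in place of 10 at day 15, and all probe sets gave 3 in place of 22 at day 0. A crossed pairing at day 15, chosen after seeing the data, gave 12 member and 6 pathway calls.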
